A study of Mus musculus with 4 samples.

Results

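The transcripts described here are those of 10 genes of the fibroblast growth factor (FGF) system in cultured periosteal cells of the mouse. They were taken from the table by gene symbol, as the ligands *Fgf1*, *Fgf2*, *Fgf7*, *Fgf10* and *Fgf18* and the receptors *Fgfr1*, *Fgfr2*, *Fgfr3*, *Fgfr4* and *Fgfrl1*, out of 45802 gene symbols in the table of expression values. A signal in 1 or more libraries was found for all 10 and for 16742 genes of the table. Of the 10 genes, 9 had a value in all 4 libraries, compared with 14415 genes of the table, and *Fgfr4* had a value in 2. The study compared PDGFRα reporter+ with PDGFRα reporter- periosteal cells by RNA sequencing, with 2 libraries of each. All cells came from male mice, 9 to 10 weeks old, that carry both a tamoxifen-inducible Cre under the *Pdgfra* promoter (Pdgfrα-CreER) and the mT/mG reporter. Tamoxifen had been given at 150 mg/kg/d for 5 d, and the hind limbs were taken 14 days after the last injection. Cre switches the membrane label of a cell and its progeny for good from tdTomato to GFP, so that the reporter records *Pdgfra* promoter activity at the time of tamoxifen and not at the time of sorting. PDGFRα reporter+ cells were sorted as GFP-positive and PDGFRα reporter- cells as tdTomato-positive, and cells of both populations were negative for CD31, CD45 and Ter119. Each population was pooled from 3 to 6 mice according to the sample labels, and the methods give a different number of mice.

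FGFs are secreted proteins that bind heparan sulfate on the cell surface and activate receptor tyrosine kinases, which signal through the adaptor FRS2 to the RAS-ERK cascade and induce their own inhibitors. FGF7 and FGF10 are made by mesenchymal cells and act mainly on the epithelial splice form of FGFR2, whereas FGF2 and FGF18 act on the mesenchymal forms. In the skeleton, FGFR1 and FGFR2 are the main receptors of osteoprogenitors and osteoblasts, FGFR3 restrains growth plate chondrocytes, and FGF18 is a ligand of the perichondrium and periosteum. FGF2 is the basic FGF (bFGF) of culture media. All 4 libraries were made from cells that had been grown for 1 passage with 10 ng/mL recombinant bFGF and 15% serum, so that every value below was measured in cells already exposed to an FGF ligand. The *Fgf2* values are those of the transcript of the cells and not of the protein added.

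Values were log2 signals, quantile normalized by the authors over the 4 libraries, in which 1 unit is a doubling. They ran from −10.07 to 11.73 with a median of 1.48 in each library, and a blank marks a gene without signal. The sequencing depth is unknown and no counting error can be given. The column headings number the libraries of each population 2 and 3, whereas the sample labels number them 1 and 2, and neither says what a number stands for. Libraries with the same number were the most alike (across genes, which are no replicates of each other, Pearson r of 0.982 and 0.984, against 0.951 to 0.957 for the other pairs). The difference between populations is therefore also given within each number. Of 10 periosteal stromal markers, 10 had a value in all 4 libraries. Their summed linear signal was 1995 and 2961 in PDGFRα reporter+ libraries 2 and 3 and 1764 and 2331 in PDGFRα reporter- libraries 2 and 3, with *Col3a1* the highest. The transcript of *Pdgfra* itself had log2 values of 7.78 and 7.62 in PDGFRα reporter+ and 7.87 and 7.44 in PDGFRα reporter- libraries, so that the populations overlapped for the gene that drives the reporter. Of 10 macrophage markers, 9 had a value in all 4 libraries, and *Fcgr1* was blank in 1. Their summed linear signal was 229 and 269 in PDGFRα reporter+ and 88.2 and 172 in PDGFRα reporter- libraries, most of it from *Lyz2*. For each of the other marker lists, the gene with the highest mean log2 value over the 4 libraries is named, which need not be the highest in each library. Endothelial markers summed to at most 4.46 (8 of 10 with a value in all libraries, *Erg*), Schwann cell markers to at most 4.20 (5 of 6, *S100b*) and skeletal myogenic markers to at most 3.12 (5 of 10, *Acta1*, with *Pax7* and *Myf5* blank throughout). Chondrocyte markers summed to between 149 and 284 (6 of 10, *Comp*, with *Chad* blank throughout and the symbol *Cnmd* not among those of the table), and osteoblast markers to between 2152 and 3404 (7 of 8, nearly all from *Spp1*). In both libraries numbered 2, *Spp1* had the highest value of the scale, 11.73, which the normalization makes equal in all libraries. In bulk RNA, fewer cells of a type and less RNA per cell cannot be told apart.

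None of the 9 FGF ligands and receptors with a value in all libraries separated PDGFRα reporter+ from PDGFRα reporter- cells. The populations overlapped for 9 of 9, and they did not overlap for 15.7% of all genes tested. With so few members, 0 beside that share is no result about the members. With limma, 0 of 9 reached an adjusted p under 0.05, as did 0% of the 14415 genes tested, and 0 of 9 had an unadjusted p under 0.05, compared with 0.909% (131) of all genes. For a single gene, an exact permutation test (two-sided) could not go below 0.333 with 2 libraries against 2 and was not run. The median log2 fold change, PDGFRα reporter+ minus PDGFRα reporter-, was −0.01 over the 9 genes and −0.004 over all genes tested, and the median of its size without sign was 0.07 and 0.12, respectively. By contrast, 7 of the 9 genes were higher in both libraries numbered 3 than in both libraries numbered 2, and 0 were lower, compared with 36.4% and 28.8% of all genes. When only genes whose log2 values averaged 0 or more were taken, these were 6 of 7 members and 37.7% of 10224 genes, and the populations did not overlap for 0 of the 7 and 13.9%. With the number as a block in limma, 0 of 9 members were among the 0.201% of genes with an adjusted p under 0.05, and 1 (*Fgf10*) was among the 6.33% with an unadjusted p under 0.05. Nothing says that the libraries come from separate cultures, so that p-values measure the spread between these libraries only.

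**Figure D1:**
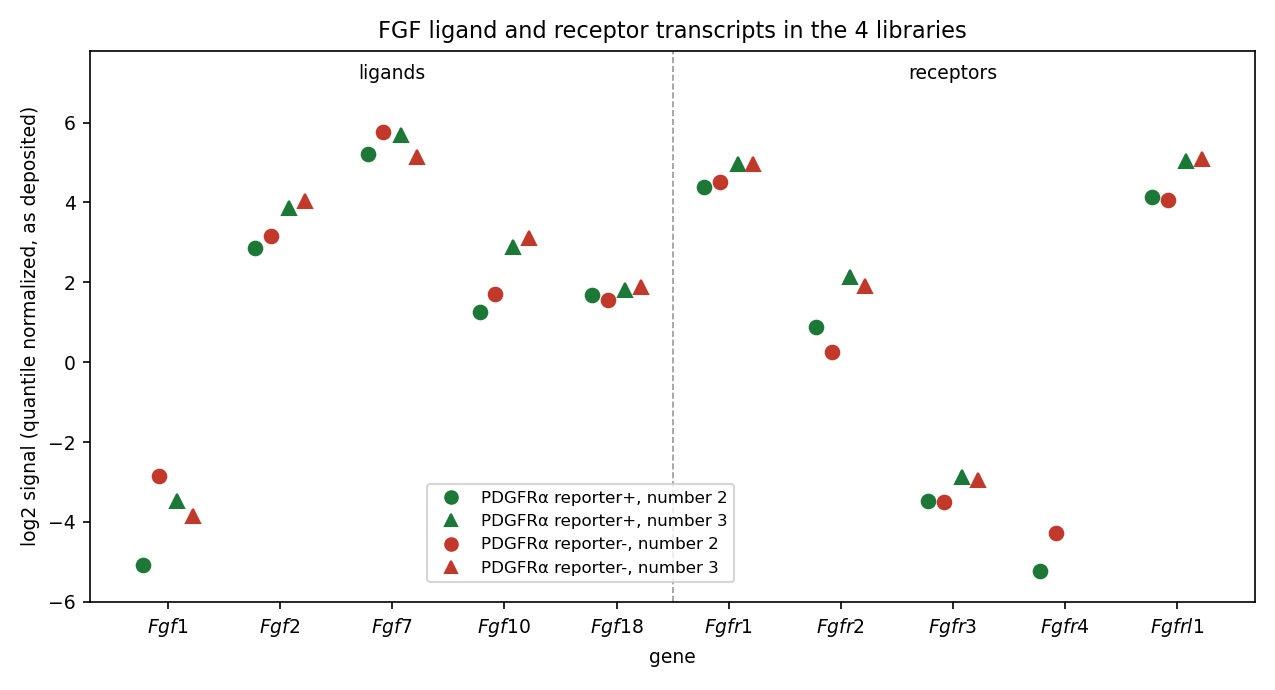
Log2 signal (vertical axis, quantile normalized as deposited) of each FGF ligand and receptor gene (horizontal axis) in each library, green for PDGFRα reporter+, red for PDGFRα reporter-, circles for number 2 and triangles for number 3. The triangles lie above the circles for 7 genes, *Fgf1* and *Fgf7* are mixed, and *Fgfr4* has no value in number 3.

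*Fgf7* (chromosome 2, 126034658 to 126091185, build GRCm38.p6), the keratinocyte growth factor, ranked highest of the ligands within each library. Its log2 values were 5.20 and 5.69 in PDGFRα reporter+ libraries 2 and 3 and 5.77 and 5.13 in PDGFRα reporter- libraries 2 and 3. The difference was −0.57 within number 2 and 0.56 within number 3, which left a log2 fold change of −0.01 (SE 0.30, limma 95% interval −0.81 to 0.79). Among the genes listed in the same library it ranked between percentiles 94.9 and 97.0. As the unit is not stated, ranks between genes are approximate.

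*Fgf2* (chromosome 3, 37348477 to 37410106) had log2 values of 2.85 and 3.85 in PDGFRα reporter+ and 3.17 and 4.03 in PDGFRα reporter- libraries, again in the order 2 and 3. Both libraries numbered 3 were above both numbered 2, by 1.00 (PDGFRα reporter+) and 0.86 (PDGFRα reporter-). PDGFRα reporter+ cells were lower within each number, by 0.32 and 0.18, a log2 fold change of −0.25 (SE 0.46, interval −1.47 to 0.98). The gene shares exonic sequence with *Nudt6* on the opposite strand, whose log2 values were between −0.04 and 0.33, and whether strand was used in counting is not stated.

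*Fgf10* (chromosome 13, 118714699 to 118792573), which signals from mesenchyme to epithelium in limb and lung development, had the largest difference between numbers among the members. Its log2 values were 1.25 and 2.88 in PDGFRα reporter+ and 1.70 and 3.11 in PDGFRα reporter- libraries. The libraries numbered 3 exceeded those numbered 2 by 1.52 on average, a 2.87-fold difference in signal. Within the numbers PDGFRα reporter+ cells were lower by 0.45 and 0.23, a log2 fold change of −0.34 (SE 0.74, interval −2.31 to 1.63).

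*Fgf18* (chromosome 11, 33116970 to 33147400), a ligand with roles in bone and cartilage growth, varied least. Its log2 values were 1.69 and 1.82 in PDGFRα reporter+ and 1.56 and 1.88 in PDGFRα reporter- libraries, a range smaller than that of any other member. The difference was 0.13 within number 2 and −0.06 within number 3, and the log2 fold change of 0.03 (SE 0.22) had the narrowest interval of the members, −0.55 to 0.61. A doubling or halving between the populations (1 log2 unit) lay outside that interval.

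*Fgf1* (chromosome 18, 38838672 to 38929470), the acidic FGF, which binds all FGF receptors, ranked lowest of the ligands. Its log2 values were −5.07 and −3.48 in PDGFRα reporter+ and −2.85 and −3.86 in PDGFRα reporter- libraries, between percentiles 9.12 and 18.6. The PDGFRα reporter+ library numbered 2 was the lowest and the PDGFRα reporter- library with the same number the highest. The difference was accordingly −2.22 within number 2 and 0.38 within number 3. The log2 fold change of −0.92 (SE 0.83, interval −3.13 to 1.29) was the only value of a member past 2 SD of the log2 fold changes of all genes (0.83), and it was −0.12 without PDGFRα reporter+ library 2 and −0.06 with a pseudocount of 1 added to the linear signal.

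*Fgfr1* (chromosome 8, 25518759 to 25575718), the receptor tyrosine kinase typical of mesenchyme, had log2 values of 4.38 and 4.95 in PDGFRα reporter+ and 4.50 and 4.97 in PDGFRα reporter- libraries. It was higher in number 3 by 0.57 and 0.46, and it lay between percentiles 90.7 and 94.3. The populations differed by −0.12 within number 2 and −0.01 within number 3, a log2 fold change of −0.07 (SE 0.28, interval −0.81 to 0.67), so that a doubling lay outside the interval, as it did for *Fgf7*.

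*Fgfrl1* (chromosome 5, 108694229 to 108706950) encodes a receptor-like protein that binds FGFs and lacks the tyrosine kinase domain. Its log2 values were 4.14 and 5.03 in PDGFRα reporter+ and 4.06 and 5.08 in PDGFRα reporter- libraries. Libraries with the same number were within 0.07 of each other, whereas the numbers were 0.95 apart on average, a 1.94-fold difference in signal. The log2 fold change between the populations was 0.01 (SE 0.47, interval −1.24 to 1.26).

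*Fgfr2* (chromosome 7, 130162451 to 130266808), whose splice forms bind different ligands and are not told apart by 1 value per gene, had the largest log2 fold change of the receptors. Its log2 values were 0.88 and 2.14 in PDGFRα reporter+ and 0.26 and 1.91 in PDGFRα reporter- libraries. PDGFRα reporter+ cells were higher within each number, by 0.61 and 0.23, a log2 fold change of 0.42 (SE 0.72, interval −1.50 to 2.34). The difference between numbers was larger, 1.45 on average or 2.74-fold, so that the populations overlapped.

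*Fgfr3* (chromosome 5, 33721724 to 33737068) ranked low, with log2 values of −3.47 and −2.87 in PDGFRα reporter+ and −3.49 and −2.94 in PDGFRα reporter- libraries, between percentiles 15.8 and 18.5. It differed by 0.02 and 0.07 within the numbers (log2 fold change 0.04, SE 0.57, interval −1.47 to 1.55), and number 3 exceeded number 2 by 0.58. *Fgfr4* (chromosome 13, 55152818 to 55168759), a receptor known from muscle progenitors and liver, had log2 values of −5.22 in PDGFRα reporter+ library 2 and −4.27 in PDGFRα reporter- library 2 and was blank in both libraries numbered 3. A value in both libraries numbered 2 and in neither numbered 3 was found for 138 (0.824%) of the 16742 genes with any value. The summed linear signal of the skeletal myogenic markers was also highest in PDGFRα reporter- library 2, at 3.12, compared with 0.706 in PDGFRα reporter+ library 2, 0.421 in PDGFRα reporter+ library 3 and 0.906 in PDGFRα reporter- library 3, and its part in the *Fgfr4* values was not tested.

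**Figure D2:**
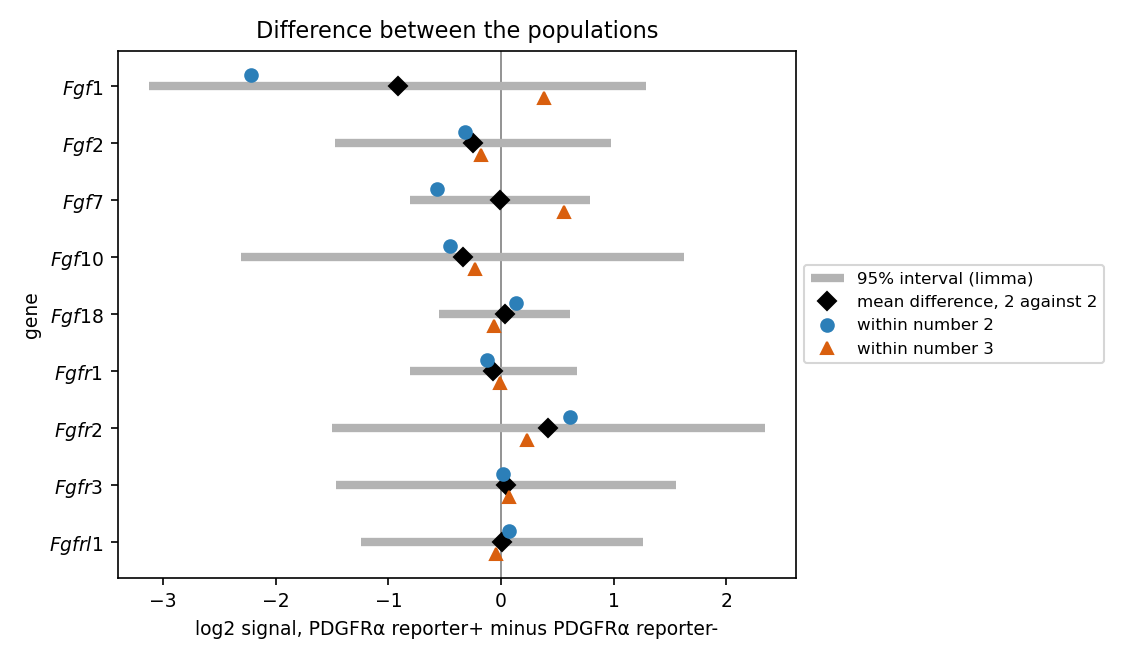
Log2 signal of PDGFRα reporter+ minus PDGFRα reporter- cells (horizontal axis) for the 9 genes without a blank, as the mean difference (diamonds) with its limma 95% interval (grey bars) and within number 2 (circles) and number 3 (triangles). Every interval spans 0, from −0.55 to 0.61 for *Fgf18* to −3.13 to 1.29 for *Fgf1*.

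Within the numbers, *Fgfr2* and *Fgfr3* were higher in PDGFRα reporter+ cells both times (2 of 9, 22.1% of all genes), *Fgf2*, *Fgf10* and *Fgfr1* were lower both times (3 of 9, 24.8% of all genes), and the other 4 had opposite signs (53.2% of all genes had opposite signs or no difference). A share of the members near that of all genes is no result about the members. When 1 library was left out, the sign of the log2 fold change turned for 8 of the 9 genes, all but *Fgf1*. Leaving out 1 library puts part of the difference between numbers 3 and 2 into the fold change. For the same 8 genes, and for 75.7% of all genes, that difference was larger than the one between populations. These turns and the counts that follow are therefore no test of the populations. Without PDGFRα reporter+ library 2, 8 of the 9 genes were higher in PDGFRα reporter+ cells, and without PDGFRα reporter+ library 3, 0 were. Without PDGFRα reporter- library 2, 1 was higher, and without PDGFRα reporter- library 3, 7 were.

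The difference between the libraries numbered 3 and 2 was larger than the difference between the populations for 8 of the 9 genes, all but *Fgf1*, as it was for 75.7% of all genes. Its median over the 9 genes was 0.58, compared with 0.05 over all genes tested, and the median of its size without sign was 0.58 and 0.31, respectively. It was highest for *Fgf10* (1.52), *Fgfr2* (1.45), *Fgfrl1* (0.95) and *Fgf2* (0.93) and was −0.08 for *Fgf7*. Over the lists described below, its median was 1.18 for 6 other FGF family genes and 0.97 for 5 co-receptors and binding proteins. For 16 heparan sulfate enzymes it was 0.25, and for 14 feedback and target genes 0.16. For 8 adaptors and effectors it was 0.08, and for 10 heparan sulfate core proteins −0.26. Since the labels give no group for the numbers, this difference was described and not tested. Cell type markers also differed between the numbers. The median difference, number 3 minus number 2, was 0.88 over 9 macrophage, 0.73 over 7 osteoblast and 0.52 over 8 endothelial markers, and it was −0.20 over 10 periosteal stromal, −0.73 over 6 chondrocyte, −0.76 over 5 skeletal myogenic and −0.78 over 5 Schwann cell markers. The summed linear signals, which rest on the few highest genes, need not follow these medians. Those of the stromal and osteoblast markers went the other way in both populations, with *Col3a1* higher by 1.03 and *Spp1* lower by 0.66 in number 3, as did that of the chondrocyte markers in PDGFRα reporter- cells and that of the endothelial markers in PDGFRα reporter+ cells. The part of these markers in the difference was not tested.

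**Figure D3:**
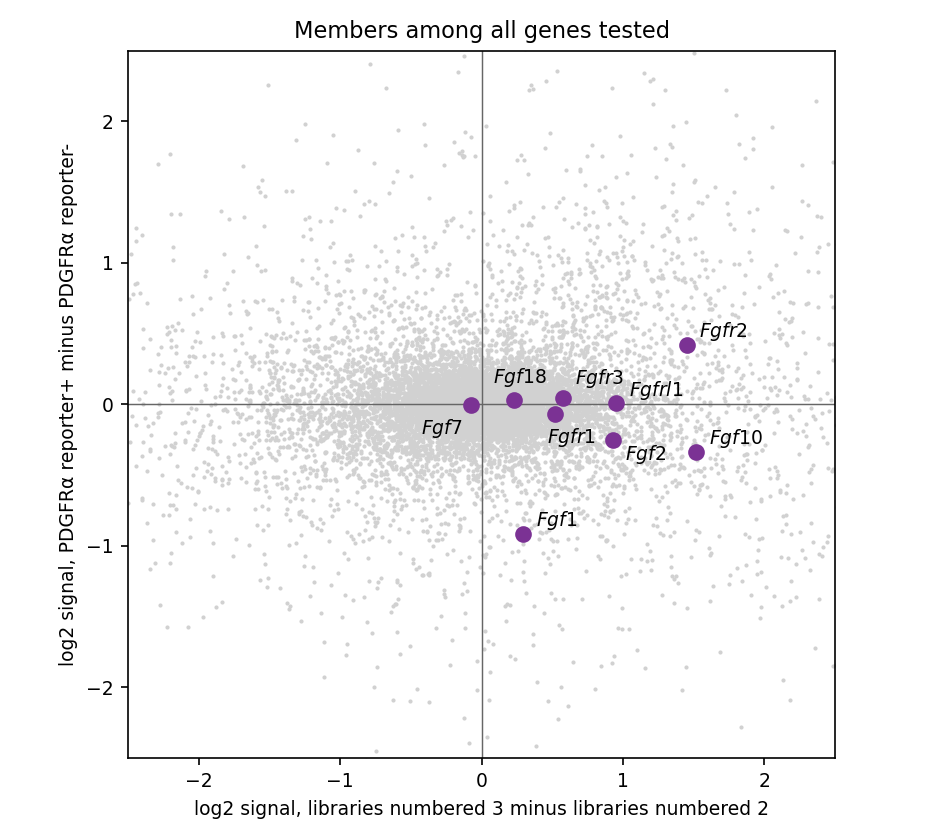
Log2 signal of libraries numbered 3 minus libraries numbered 2 (horizontal axis) against PDGFRα reporter+ minus PDGFRα reporter- (vertical axis), with the 9 FGF genes in purple among all genes tested in grey. Of the genes tested, 351 lie beyond the axis limits of 2.5. *Fgf10* and *Fgfr2* lie farthest to the right, at 1.52 and 1.45, and *Fgf1* lowest, at −0.92.

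The sequences before the transcription start are shown for *Fgf10*, *Fgfr2* and *Fgfrl1*, the members with the largest mean difference between numbers 3 and 2. They are the 250 bases before the start site in RefSeq on GRCm38.p6, and the promoter table used here held 8 of the 10 genes. For *Fgf10* this is chr13:118714449-118714698 on the + strand, for *Fgfr2* chr7:130266809-130267058 on the - strand and for *Fgfrl1* chr5:108693979-108694228 on the + strand. Capitals mark the GC box GGGCGG on either strand.
Fgf10: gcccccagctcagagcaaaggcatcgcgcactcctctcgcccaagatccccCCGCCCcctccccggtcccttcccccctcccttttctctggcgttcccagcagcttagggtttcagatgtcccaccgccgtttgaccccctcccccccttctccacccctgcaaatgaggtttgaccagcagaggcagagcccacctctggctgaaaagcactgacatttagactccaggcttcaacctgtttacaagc
Fgfr2: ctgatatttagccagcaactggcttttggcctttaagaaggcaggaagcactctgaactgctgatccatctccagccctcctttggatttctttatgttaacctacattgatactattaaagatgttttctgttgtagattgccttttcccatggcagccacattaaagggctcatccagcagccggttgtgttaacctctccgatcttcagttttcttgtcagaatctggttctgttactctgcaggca
Fgfrl1: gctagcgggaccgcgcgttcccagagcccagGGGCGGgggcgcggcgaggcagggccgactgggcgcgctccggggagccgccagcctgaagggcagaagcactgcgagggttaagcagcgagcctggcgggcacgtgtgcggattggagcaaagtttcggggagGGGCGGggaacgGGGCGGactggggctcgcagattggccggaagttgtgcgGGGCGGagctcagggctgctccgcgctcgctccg
The 3 windows differed in GC content and in the number of GC boxes. The GC content was 61.2% for *Fgf10*, 44% for *Fgfr2* and 73.6% for *Fgfrl1*, with a median of 52.4% over the 32851 promoter windows of the same length. The dinucleotide CG was found 8 times before *Fgf10*, 2 times before *Fgfr2* and 30 times before *Fgfrl1*, with a median of 6. The GC box was found 1 time before *Fgf10*, 4 times before *Fgfrl1* and not before *Fgfr2*, and 32.7% of all windows hold it. Searched on both strands, TATAAA (12.4% of all windows) and the AP-1 motif TGANTCA (6.75%) were in none of the 3 windows, which says only that these letters are not there.

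The FGF family holds 17 other genes that were looked up, and 10 of them were listed in some library, 6 in all 4. These 6 had low signals, with every mean log2 value under 0. *Fgf14*, an intracellular FGF homologous factor that is not secreted, had the highest mean of them, with −2.02 and −1.27 in PDGFRα reporter+ and −3.16 and −1.74 in PDGFRα reporter- libraries. It was higher in PDGFRα reporter+ cells within each number (log2 fold change 0.80), as were the related *Fgf11* (log2 fold change 0.55) and *Fgf13* (0.47), a direction shared by 22.1% of all genes. *Fgf17* (−0.33) was lower within each number. *Fgf22* (−0.71) and *Fgf23*, the phosphate-regulating hormone of osteocytes (−0.08), differed in sign between the numbers. *Fgf23* spread most, from −6.90 in PDGFRα reporter+ library 2 to −0.95 in PDGFRα reporter+ library 3, with −4.48 and −3.21 in the PDGFRα reporter- libraries. *Fgf9* was listed in the PDGFRα reporter+ libraries alone (−6.72 and −7.68), a pattern of 96 genes (0.573%) of the table, and *Fgf5* in the PDGFRα reporter- libraries alone (−4.10 and −4.39), a pattern of 104 genes (0.621%). *Fgf12* (−8.53 and −8.59) and *Fgf16* (−6.98 and −7.07) were listed in the libraries numbered 3 alone, a pattern of 217 genes (1.3%). Of the 6 genes tested, 0 had an adjusted or an unadjusted p under 0.05 in limma. Their median log2 fold change of 0.20 was 0.05 with a pseudocount of 1 and turned with single libraries, from −0.52 (2 higher, 4 lower) without PDGFRα reporter- library 2 to 1.08 (5 higher, 1 lower) without PDGFRα reporter+ library 2. It was −0.12 without PDGFRα reporter+ library 3, and 0.66 when PDGFRα reporter- library 3 was left out.

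Heparan sulfate and co-receptors hold FGFs at their receptors. Among co-receptors and binding proteins, α-Klotho (*Kl*) was blank throughout, and β-Klotho (*Klb*), the co-receptor for FGF21 and FGF15, had log2 values from −7.27 to −3.33. This list had 5 genes without a blank. PDGFRα reporter+ cells were higher for 3 and lower for 2 (median log2 fold change 0.16), and the populations overlapped for all 5. The sign of that median turned with single libraries, from −0.37 (0 higher, 5 lower) without PDGFRα reporter+ library 3 to 0.40 (5 higher, 0 lower) without PDGFRα reporter+ library 2, and it was −0.31 without PDGFRα reporter- library 2. Of 10 heparan sulfate core proteins, 6 were higher and 4 lower (median 0.02, −0.16 to 0.19 when single libraries were left out). *Sdc4*, the syndecan-4 core protein, was the gene whose populations did not overlap, with 7.39 and 7.18 in PDGFRα reporter+ and 7.04 and 7.02 in PDGFRα reporter- libraries (log2 fold change 0.25, SE 0.18). Of 16 heparan sulfate enzymes, 6 were higher and 10 lower (median −0.01, −0.09 to 0.05 when single libraries were left out). *Hs2st1*, a 2-O-sulfotransferase, was higher in PDGFRα reporter+ cells without overlap, with 3.10 and 3.16 against 2.99 and 2.77 (log2 fold change 0.25, SE 0.16). *Sulf2*, a sulfatase that removes 6-O-sulfate from heparan sulfate, was lower without overlap, with 4.66 and 4.84 against 4.91 and 5.50 (log2 fold change −0.45, SE 0.25). Populations that do not overlap were found for 7.59% of all genes with PDGFRα reporter+ cells above and for 8.1% with them below. The limma adjusted p was 1 for each of these 3 genes.

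Downstream of the receptors, the adaptors and effectors, among them *Frs2*, *Grb2* and *Plcg1*, kept to a narrow range. All 8 had a value in every library, the log2 fold change lay between −0.15 and 0.004 (median −0.05), and the populations overlapped for all 8. The feedback inhibitors and targets of FGF-ERK signaling had lower means in PDGFRα reporter+ cells for 14 of the 14 genes with a value, compared with 7339 of the 14415 genes tested, with a median log2 fold change of −0.40 and values from −0.74 to −0.03. The count fell whichever library was left out. Without PDGFRα reporter+ library 2, 7 were higher and 7 lower, and 9 or 10 were lower when another library was left out. Of the 14, 8 were lower within each number (24.8% of all genes) and 6 differed in sign. The populations did not overlap for 2 of the 14, both with PDGFRα reporter+ cells below, compared with 8.1% of all genes in that direction and 15.7% in either. The first was *Il17rd*, the FGF receptor antagonist SEF, with −0.34 and −0.12 in PDGFRα reporter+ and 0.19 and 0.28 in PDGFRα reporter- libraries (log2 fold change −0.46, SE 0.29). The other, *Dusp6*, the ERK phosphatase, is named after its values were seen and had 3.37 and 3.18 against 3.80 and 3.47. None of the 14 had an adjusted or an unadjusted p under 0.05 in limma. With the number as a block, 0 of the 14 passed 0.05 after adjustment and 3 before it. These 3 were *Egr1*, *Dusp6* and *Dusp4*, named after their values were seen. All 3 were lower in PDGFRα reporter+ cells, as were 428 of the 14415 genes tested at that threshold before adjustment. In either direction, 6.33% of all genes passed it. The median of the list was −0.16 with a pseudocount of 1 and 0.04 without PDGFRα reporter+ library 2. Markers of other cell types differed between the populations in both directions. The median log2 fold change was 1.00 over 9 macrophage markers, all higher within each number, whereas it was −1.30 over 8 endothelial markers (7 lower, 4 without overlap) and −2.00 over 5 skeletal myogenic markers (5 lower, 3 without overlap). With a pseudocount of 1 these medians were 0.76, −0.27 and −0.34. When single libraries were left out they ranged from 0.49 (without PDGFRα reporter- library 2) to 1.496 (without PDGFRα reporter- library 3), from −2.35 (without PDGFRα reporter- library 2) to −1.66 (without PDGFRα reporter+ library 2) and from −2.18 (without PDGFRα reporter- library 3) to −1.08 (without PDGFRα reporter- library 2), respectively. Their part in the values of the list was not tested.

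**Figure D4:**
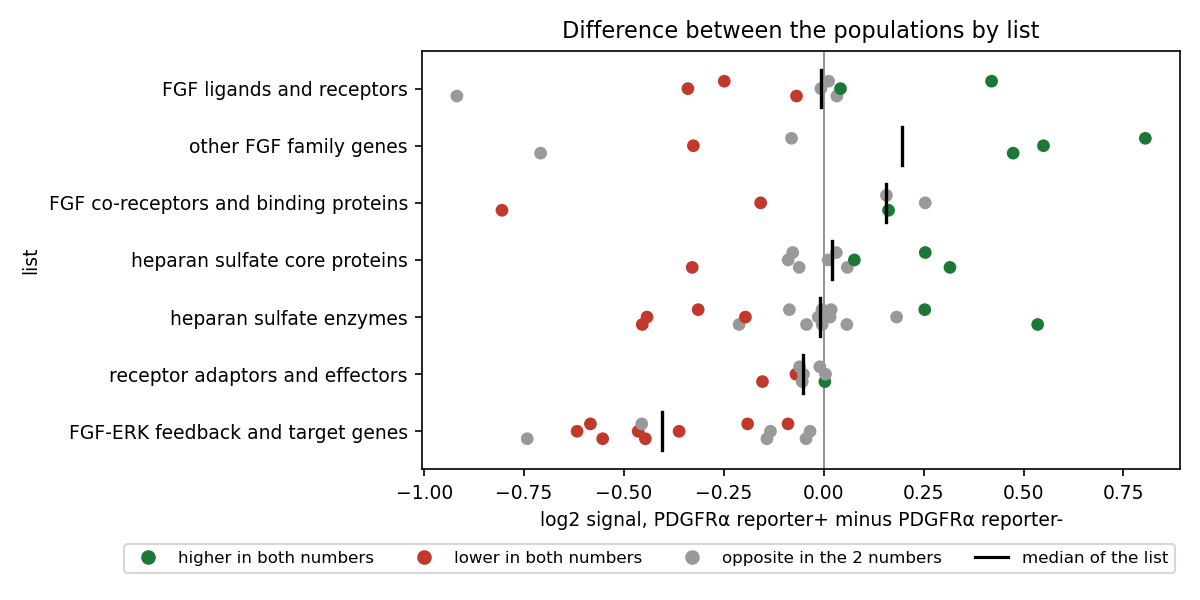
Log2 signal of PDGFRα reporter+ minus PDGFRα reporter- cells (horizontal axis) for each gene without a blank, by list (vertical axis). Green points are higher and red points lower within both numbers, grey points differ in sign, and black bars are medians, which lie at −0.01 for the FGF ligands and receptors and −0.40 for the feedback and target genes.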

How the data were processed

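RNA was measured in 2 libraries of PDGFRα reporter+ and 2 of PDGFRα reporter- cells. The log2 signals were deposited by the authors, quantile normalized, and genes without signal are blank. The linear unit, aligner, counting, annotation and filters are not given in the sources used here. The submitters' processing notes name bcl2fastq 2.17.1.14, Partek 7.0 and build GRCm38.p6 with no role for each, and the methods name Partek Genomics Suite and Spotfire. Depth and counting error are unknown. The lowest values were lower for long than for short genes, though not at each step of length (in PDGFRα reporter+ library 2, the first percentile was −6.07 for genes of 256 to below 512 exonic bases in GENCODE M21 and −8.44 for genes of 8192 to below 16384), which unscaled counts would not do, but ranks between genes remain approximate.

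Columns carry the population and a number and were assigned to their population only. Genes listed in all 4 libraries were fitted with limma 3.58.1 in R 4.3.3 (lmFit, eBayes with a trend, two-sided, no block), with Benjamini-Hochberg adjustment over all of them and a threshold of 0.05, after a test on simulated data. Lists were summarized in Python 3.11.15 with pandas 2.3.3 by counts and medians, with no set test, and summed signals are sums of 2 to the power of the log2 value. The members and lists were chosen with earlier results of these data known. Named were all members, other FGF family genes with a value, and of each further pathway list the gene with the largest positive and the largest negative log2 fold change among those whose populations do not overlap, and the highest gene of each marker list. *Klb*, *Kl*, *Fcgr1*, *Pdgfra*, *Egr1*, *Dusp4*, *Dusp6* and genes named as blank or as examples of a list were added. Alternatives were a block on the number, no trend, a pseudocount of 1, a filter on the mean, genes with blanks, median centering and leaving out each library. Positions and promoters are those of RefSeq on GRCm38.p6.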

Additional observations from a re-analysis of the deposited data

How the results depend on the processing

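The call of no FGF ligand or receptor changed under the alternatives run. In the fits of all 4 libraries without a block, no gene of the table had an adjusted p under 0.05 in limma. The unchanged calls there say nothing particular about the members. With the number as a replicate block, 29 genes had an adjusted p under 0.05 in limma, 22 with PDGFRα reporter+ cells higher and 7 with them lower (0.201% of all genes), compared with 0 and 0 without the block, and 0 of 9 members were among them. Before adjustment, *Fgf10* alone of the members had a p under 0.05 with the block (0.0484, adjusted p 0.785, log2 fold change −0.34, interval −0.68 to −0.003), beside 6.33% of all genes, and *Fgfr2* followed with 0.0521 (adjusted p 0.792, log2 fold change 0.42, interval −0.005 to 0.84). The blocked intervals of *Fgf2* (−0.53 to 0.03) and *Fgfrl1* (−0.25 to 0.27) were also narrower than without the block, so that a doubling lay outside them and outside those of *Fgf10* and *Fgfr2*. Deviations from the population means correlated across genes at 0.681 for same-numbered libraries, which with 2 pairs is a hint from the data and not the design. With genes of a mean log2 value of at least 0 alone, 10224 genes were tested instead of 14415. Populations did not overlap for 659 higher and 759 lower genes, instead of 1094 and 1167. The share in either direction was also lower, 13.9% instead of 15.7%.

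With each library left out in turn, genes whose populations did not overlap numbered 3698 to 4413 higher and 3712 to 4689 lower, since fewer libraries have to be apart. The median log2 fold change of the members ranged from −0.40 to 0.25, with 0 to 8 members higher and 1 to 9 lower. The log2 fold change ranged from −1.72 to −0.12 for *Fgf1*, −0.75 to 0.25 for *Fgf2*, −0.33 to 0.31 for *Fgf7*, −1.15 to 0.47 for *Fgf10*, −0.13 to 0.20 for *Fgf18*, −0.36 to 0.22 for *Fgfr1*, −0.40 to 1.24 for *Fgfr2*, −0.26 to 0.34 for *Fgfr3* and −0.50 to 0.52 for *Fgfrl1*. Such values carry part of the difference between the 2 libraries of a population. With no read counts, whether a blank or a low value of *Fgf1*, *Fgfr3* or *Fgfr4* differs from no expression cannot be judged.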
